A study of Rattus norvegicus with 15 samples.

Results

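Rat airway epithelial cells given CSE together with naringenin were compared with untreated control cells, so that the differences are those still present when naringenin accompanied the exposure. The libraries were chosen by their treatment labels and number 10 of the series' 15, 5 in each group. The cells were freed from rat trachea with 0.25% pancreatin, grown on porous inserts and then kept for weeks with their upper surface in air, a culture in which airway basal cells give rise to ciliated and secretory cells. Control cells received nothing, CSE cells received 10% CSE for 24 h, and the remaining group received 10% CSE with 100 µM naringenin, a flavanone of citrus fruit, which had been added 4 h before. CSE is an abbreviation that the labels do not expand. No library received naringenin alone, and strain, age, number of animals and any pooling are not given in the sources used here. The labels also do not say whether the 5 libraries of a group came from separate cultures, so each p-value reflects the spread between libraries alone, and that spread may be technical.

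Airway epithelium answers inhaled chemicals through several sensor proteins. The aryl hydrocarbon receptor (AhR) binds planar aromatic compounds and switches on the cytochromes that oxidise them. NRF2 is a transcription factor that is normally degraded, escapes when electrophiles modify its partner KEAP1, and then drives genes for glutathione, NADPH and quinone reduction, while NF-kB drives chemokines and other inflammatory genes.

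Library totals lay between 55.1 and 60.6 M counts (1 M is 1e6), and a floor of 3 counts equalled 0.0495 to 0.0545 CPM (counts per 1e6 scaled by TMM, edgeR's correction for library composition). Mitochondrially encoded genes took 7.53% to 9.06% of the counts in CSE with naringenin and 7.67% to 8.57% in control. Summed levels of markers matched the labelled tissue in all 10 libraries: 27 cilium genes together reached 5062 to 8468 CPM in control and 5312 to 7351 CPM in CSE with naringenin, 13 club cell genes 11350 to 12860 and 8271 to 10200 CPM, and 14 basal cell genes 2168 to 3103 and 1346 to 2228 CPM. Most of the club cell sum was a single gene, Pigr, at 9735 to 12007 CPM in control and 7341 to 8937 CPM in CSE with naringenin. The club cell list member Cckar had 0 reads in both groups. The 11 leukocyte markers together reached 140.8 to 178.1 and 123.9 to 171.6 CPM, so RNA of members of that list was present in both groups. Ptprc, Itgam and Adgre1 were at 0 reads in CSE with naringenin, but no leukocyte marker was at 0 reads in control. The 4 endothelial markers together reached at most 9.10 CPM in either group. Clustering of the counts, with group means removed, split the libraries into 3 sets that cut across the groups, and set 3 held library 5 of each group. Control library 5 stood apart from the other controls in many genes.

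Of 15860 genes tested, 1294 (8.16%) passed an adjusted p of 0.05 in CSE with naringenin against control, 675 (4.26%) higher and 619 (3.9%) lower. The differences were mostly small, with a median absolute log2 fold change of 0.48 among the genes that passed. At least 2-fold differences were found for 91 genes that rose (0.574%) and 139 that fell (0.876%), and 56 genes differed at least 4-fold, 23 higher and 33 lower. In 953 of the 1294 the 5 libraries of CSE with naringenin lay wholly above or wholly below the 5 controls, which held for 8.27% of all genes tested (4.65% above and 3.62% below). The same sign in all 3 library sets was seen in 1282 of the 1294. These signs come from the same 10 libraries as the calls, so they are no separate check. In the same fit CSE without naringenin differed from control in 3363 genes (21.2%; 10.8% higher and 10.4% lower), and CSE with naringenin differed from CSE in 144 (0.908%), 53 higher (0.334%) and 91 lower (0.574%). Both comparisons with control use the same 5 control libraries, so their values stand side by side below and are not independent of each other.

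The counts depended on single libraries. Without CSE with naringenin library 1, 3 or 4, 376, 359 and 409 genes were lower, and without library 1 or 3 or control library 4, 415, 396 and 433 were higher. With limma on the deposited FPKM values, which carry another scaling, 1195 genes were higher and 494 lower, so that 70.8% of calls were higher in place of 52.2%. Bulk RNA cannot tell fewer cells of a type from less RNA per cell, and this holds for every fall and rise below. Each count of list members below stands beside the shares over all genes tested, 4.26% higher and 3.9% lower.

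**Figure D1:**
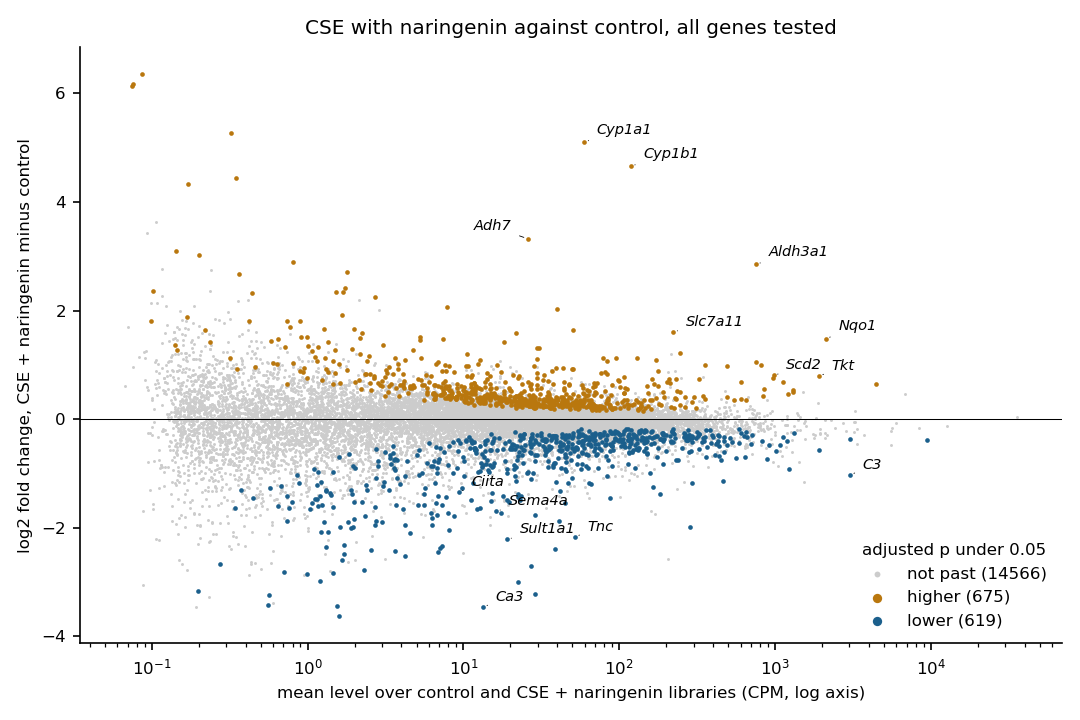
Each point is a gene tested, with its mean level over the 10 libraries on the horizontal axis (CPM, log axis) and its log2 fold change, CSE with naringenin minus control, on the vertical axis. The 675 higher and 619 lower genes past the threshold are coloured, and Cyp1a1 and Cyp1b1 stand more than 4 log2 units above 0 at levels where most genes lie near it.

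Among genes with non-overlapping groups and a mean of at least 5 CPM in one of them, the largest rises were those of Cyp1a1, Cyp1b1, Adh7 and Aldh3a1. All 7 tested AhR targets rose, with a median log2 fold change of 2.72 against 7.9e-05 over all genes tested. Cyp1a1, the best known cytochrome under AhR control, was at 2.65, 3.55, 3.71, 4.68 and 2.21 CPM in control libraries 1 to 5 and at 123, 147, 121, 107 and 81.3 CPM in libraries 1 to 5 of CSE with naringenin. Every library of CSE with naringenin was far above every control, and the rise was 34.5-fold (log2 5.11 ± 0.30 SE, adjusted p = 4.13e-07). CSE alone gave 122 to 321 CPM, and the difference between CSE with naringenin and CSE was a log2 of -0.89 (adjusted p = 0.10), with overlapping libraries.

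Cyp1b1, a related cytochrome, went from 7.57, 9.11, 12.5, 10.6 and 5.29 CPM in control to 232, 375, 195, 152 and 187 CPM in CSE with naringenin. The groups were again far apart (log2 4.66 ± 0.30 SE, adjusted p = 1e-06), while the libraries overlapped those of CSE alone, which ran from 190 to 341 CPM (log2 -0.22, adjusted p = 0.80). Aldh3a1, an aldehyde dehydrogenase that clears reactive aldehydes, was at 148, 177, 123, 132 and 335 CPM in control and at 1170, 1965, 1176, 1054 and 1262 CPM in CSE with naringenin (log2 2.86 ± 0.27 SE, adjusted p = 2.19e-05). Control library 5 was the highest control and library 2 the highest of the other group, and no library of one group reached the other. The AhR repressor Ahrr, a feedback inhibitor of the receptor, was low throughout, at 0.205 to 0.65 CPM in control and 1.02 to 5.52 CPM in CSE with naringenin (log2 2.72 ± 0.47 SE, adjusted p = 0.0028). Tiparp, a mono-ADP-ribosyltransferase that dampens AhR, and Ugt1a6, a glucuronosyltransferase, both named after their values were seen, rose with log2 1.13 and 0.76 (adjusted p = 7.93e-05 and 0.0041). The deposited table, for which the labels name no genome build, places Cyp1a1 (ENSRNOG00000019500) on chromosome 8 from 62472095 to 62478147, Cyp1b1 (ENSRNOG00000040287) on chromosome 6 from 2307808 to 2316717 and Aldh3a1 (ENSRNOG00000002331) on chromosome 10 from 47490153 to 47499876.

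AhR and its partner ARNT bind DNA at sites with the core letters GCGTG. In RefSeq promoters of build GRCr8 those letters were searched on both strands in the 250 bases before the start of each gene. They were present for all 5 AhR list members with an entry (Cyp1b1, Ahrr, Tiparp, Nqo1 and Ugt1a6) and for 25.89% of all 33469 promoters. The letters were not particular to that list, as 7 of 13 NRF2 list members with an entry (53.85%) held them too, Nqo1 among these. A list member counted when any of its entries matched, whereas the overall share is per entry. Both of the sequences that follow belong to members with a large rise and are shown because they hold more than 1 copy, 2 in Cyp1b1 (chr6:21094315-21094564, plus strand) and 3 in Ahrr (chr1:30821969-30822218, plus strand), with capitals marking each match (CACGC where it reads on the opposite strand).
Cyp1b1: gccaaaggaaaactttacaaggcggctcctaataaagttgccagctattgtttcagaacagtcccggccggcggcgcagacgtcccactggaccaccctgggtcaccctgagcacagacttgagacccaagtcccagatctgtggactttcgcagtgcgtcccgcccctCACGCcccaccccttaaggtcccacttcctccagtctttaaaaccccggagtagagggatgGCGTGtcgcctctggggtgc
Ahrr: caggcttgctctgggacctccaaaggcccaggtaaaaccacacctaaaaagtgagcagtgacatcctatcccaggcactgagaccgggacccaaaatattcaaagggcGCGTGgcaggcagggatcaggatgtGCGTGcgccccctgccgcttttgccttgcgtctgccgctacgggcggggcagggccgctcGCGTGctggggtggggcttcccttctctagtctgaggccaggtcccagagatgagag
These matches describe the letters of the reference sequence and show no binding in these cells.

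Antioxidant genes controlled by NRF2 were the next group, with 12 of 19 tested members higher and 7 not past the threshold (median log2 0.52). Nqo1, a quinone reductase that stands on both lists, was at 1308, 1295, 1098, 1045 and 829 CPM in control and at 3043, 3041, 3410, 3194 and 2891 CPM in CSE with naringenin. The groups did not overlap (2.79-fold, log2 1.48 ± 0.11 SE, adjusted p = 2.87e-06). The libraries of CSE with naringenin also all lay below those of CSE alone, at 3690 to 4046 CPM, but this difference did not pass the threshold (log2 -0.32, adjusted p = 0.18).

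Gclm, the regulatory part of the ligase that catalyses the first step of glutathione synthesis, was at 516, 488, 446, 498 and 494 CPM in control and at 1079, 846, 1146, 1071 and 931 CPM in CSE with naringenin (2.08-fold, adjusted p = 7.99e-06). Even the lowest library of the latter group was well above the highest control. Tkt, a transketolase of the pentose phosphate pathway, rose with log2 0.79 ± 0.062 (SE, adjusted p = 6.04e-06), and its difference from CSE alone did not pass the threshold (log2 -0.08, adjusted p = 0.67). Slc7a11, the cystine importer that feeds glutathione synthesis, went from 97 to 119 CPM in control to 210 to 463 CPM in CSE with naringenin (log2 1.61 ± 0.22 SE, adjusted p = 4.76e-04). CSE alone gave 422 to 767 CPM for it (log2 -0.73, adjusted p = 0.12 for CSE with naringenin minus CSE). The malic enzyme Me1, another source of NADPH, was at 174 to 203 CPM, above every control (121 to 168 CPM) and below every CSE library (233 to 260 CPM). Both of its differences passed, with log2 0.39 (adjusted p = 0.0078) against control and -0.36 (adjusted p = 0.046) against CSE. The thioredoxin reductase Txnrd1 rose with log2 0.35 (adjusted p = 0.019), a call that was lost without control library 2 (adjusted p = 0.053) and without CSE with naringenin library 3 (adjusted p = 0.055).

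Hmox1, the heme oxygenase that also belongs to the NRF2 list, did not pass against control. It was at 144, 139, 142, 154 and 283 CPM in control libraries 1 to 5, at 202, 191, 304, 291 and 456 CPM in CSE with naringenin, and at 558 to 1450 CPM in CSE alone. Control library 5 overlapped the treated libraries while the other 4 controls lay below all of them (log2 0.74 ± 0.31 SE, adjusted p = 0.16, or 0.056 without control library 5). The difference from CSE alone passed, at a log2 of -1.78 (adjusted p = 0.018).

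The antioxidant response element is bound by NRF2 with a small MAF protein and is searched here as TGACNNNGC. In the same 250-base windows, again on both strands, it was found in 5 of 13 NRF2 list members with an entry (Gclm, Txnrd1, Me1, Prdx1 and Gpx2) and in 10.08% of all promoters. The windows of Gclm (chr2:213031885-213032134, plus strand) and Me1 (chr8:96540245-96540494, minus strand) are shown because both genes rose and each holds a single match, in capitals, which reads on the opposite strand in Gclm. The sequences are from RefSeq, build GRCr8.
Gclm: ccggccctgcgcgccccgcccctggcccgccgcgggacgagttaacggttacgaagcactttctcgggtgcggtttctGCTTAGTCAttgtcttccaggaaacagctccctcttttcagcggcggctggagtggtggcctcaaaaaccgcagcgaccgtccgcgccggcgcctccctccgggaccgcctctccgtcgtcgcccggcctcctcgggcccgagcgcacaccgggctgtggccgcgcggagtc
Me1: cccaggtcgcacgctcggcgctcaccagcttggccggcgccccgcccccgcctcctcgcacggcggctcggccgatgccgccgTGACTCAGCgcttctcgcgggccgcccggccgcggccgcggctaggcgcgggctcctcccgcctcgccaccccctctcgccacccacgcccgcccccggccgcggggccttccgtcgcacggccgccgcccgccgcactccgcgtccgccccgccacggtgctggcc
Nqo1, Gclc, Slc7a11, Taldo1, Tkt and Abcc1 rose with no match to these letters in their windows. Prdx1 and Gpx2 held a match but did not pass against control. A match or its absence says nothing of the factor.

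Other enzymes of detoxification rose in part. Of 12 aldehyde and alcohol dehydrogenases 6 rose (4 without control library 5) and 1 fell (0 fell without control libraries 1, 2 or 4 or CSE with naringenin libraries 1, 2 or 5). Of 12 aldo-keto and carbonyl reductases 4 rose (3 to 4 when single libraries were left out). Of 20 conjugation enzymes 6 rose and 1 fell (3 rose without CSE with naringenin library 3). Adh7, an alcohol dehydrogenase that also oxidises retinol, went from 8.15, 7.86, 1.21, 2.35 and 3.93 CPM in control to 11, 29.2, 84.5, 75.1 and 35.5 CPM in CSE with naringenin. The groups did not overlap, though library 1 of CSE with naringenin was close to the highest controls (log2 3.32 ± 0.64 SE, adjusted p = 0.0060). The aldo-keto reductases Akr1b8 and Akr7a3, which reduce reactive carbonyls, rose with log2 0.98 and 0.93 (adjusted p = 0.0016 and 6.14e-04). Both were lower than in CSE alone, with log2 -0.96 and -0.90 (adjusted p = 0.0094 and 0.0046), and their libraries lay wholly between the other groups. Gsta3, a glutathione transferase, rose with log2 1.31 (adjusted p = 0.011), and Aldh1a3, which makes retinoic acid, with log2 0.95 (adjusted p = 0.0077). Sult1a1, a sulfotransferase for phenols, fell from 20.4 to 44 CPM in control to 5.25 to 8.2 CPM (log2 -2.21 ± 0.28 SE, adjusted p = 3.2e-04). Counts of the Adh, Akr, Aldh1a, Gst and Ugt1a families are uncertain where reads could be split between near-identical copies.

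The remaining genes among the 8 largest rises were a transferase, a reductase and a transporter. Fut1, the fucosyltransferase that builds the H antigen, rose 4.19-fold (adjusted p = 0.0041), Ptgr1, a reductase of unsaturated aldehydes, rose 4.07-fold (adjusted p = 3.21e-04), and Abcc4, an exporter of organic anions, rose 3.12-fold (adjusted p = 4.43e-04). Against CSE alone their log2 fold changes were -0.20, -0.99 and -0.36 (adjusted p = 0.88, 0.074 and 0.52).

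**Figure D2:**
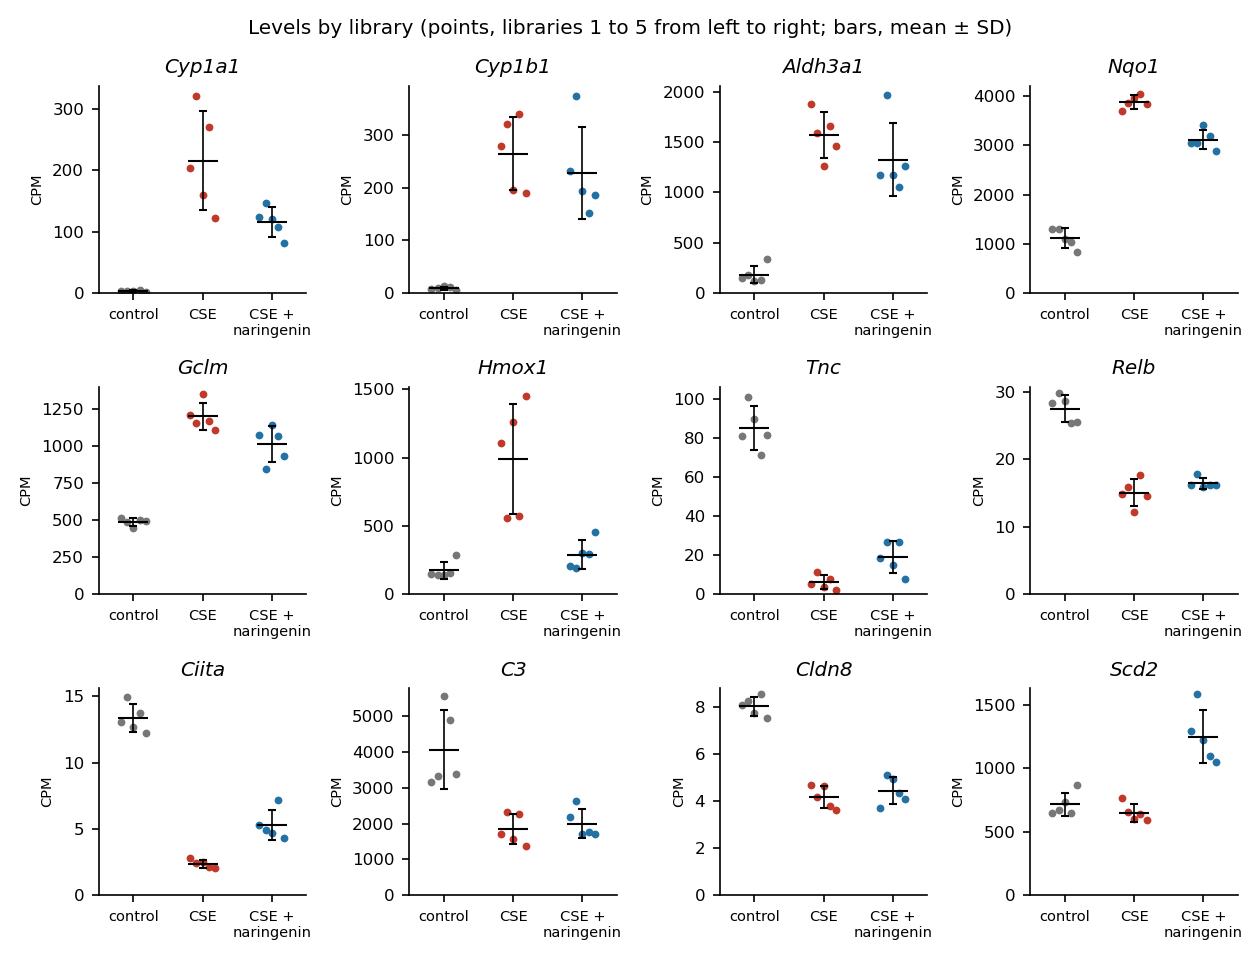
Each panel shows the level of a gene (CPM, from 0) in the 15 libraries, with libraries 1 to 5 of each group from left to right and bars for the mean ± SD of 5 libraries. In Cyp1a1, Cyp1b1, Aldh3a1, Nqo1 and Gclm all libraries of CSE with naringenin lie above the controls, in Tnc, Relb, Ciita, C3 and Cldn8 all lie below them, and Scd2 is higher than in both other groups.

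Genes of inflammation were lower where they passed. Of 13 NF-kB subunits and feedback inhibitors 7 fell and 6 did not pass (4 fell without CSE with naringenin library 3), with a median log2 of -0.57. Relb, the subunit of the non-canonical pathway, was at 28.3, 29.8, 28.6, 25.3 and 25.5 CPM in control and at 16.1, 17.7, 15.8, 16.2 and 16.2 CPM in CSE with naringenin. The treated libraries were tightly grouped and clear of the controls (log2 -0.75 ± 0.090 SE, adjusted p = 2.18e-04), and CSE alone gave 12.2 to 17.7 CPM (log2 0.13, adjusted p = 0.62). Nfkb1, the precursor of p50, and Nfkb2, the precursor of p52, fell by 0.57 and 0.40 on the log2 scale, and Tnip1, which restrains the pathway together with A20, fell by 0.65 (adjusted p = 0.0061, 0.0057 and 0.0096).

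Of 23 chemokines and cytokines 4 fell (Cxcl16, Ccl20, Ccl2 and Csf2; 2 without CSE with naringenin library 5), and the list median was -1.01. Csf2, the growth factor GM-CSF, was at 1.75, 2.17, 2.84, 1.85 and 11.5 CPM in control and at 1.10, 1.15, 0.035, 0.388 and 0.238 CPM in CSE with naringenin. Its fall (log2 -2.78 ± 0.71 SE, adjusted p = 0.027) rests in part on control library 5, without which it was -1.88 and did not pass (adjusted p = 0.068), and the call was also lost without libraries 4 or 5 of CSE with naringenin (adjusted p = 0.067 and 0.064). Ccl20, which attracts cells bearing CCR6, fell from 18.9 to 58.9 CPM in control to 7.8 to 15.8 CPM (log2 -1.53 ± 0.33 SE, adjusted p = 0.011; -1.10 without control library 5). The monocyte chemokine Ccl2 went from 8.7, 12.9, 7.52, 4.82 and 2.04 CPM to 1, 1.61, 1.17, 1.33 and 1.19 CPM, with no overlap (log2 -2.51 ± 0.62 SE, adjusted p = 0.022). Its adjusted p was 0.057, 0.060, 0.056 and 0.050 (the last just above the threshold) without control library 2 and without libraries 1, 3 and 5 of CSE with naringenin. Of 14 genes on a list of nitric oxide, oxidase and prostaglandin enzymes 3 fell (1 without library 1 or 3 of CSE with naringenin). They were Nox1, Alox15 and Nos2, none of them a prostaglandin synthase. The lipoxygenase Alox15 fell with log2 -1.47 (adjusted p = 0.024). Its call was lost without control libraries 1 or 2 or libraries 1 or 3 of CSE with naringenin (adjusted p up to 0.062). Nox1, an NADPH oxidase that makes superoxide, fell with log2 -1.84 (adjusted p = 0.0083). The inducible nitric oxide synthase Nos2 fell with log2 -2.70 (adjusted p = 0.028) from a control mean that rests on library 5, at 162 CPM against 17.1 to 20.5 CPM in the other 4. Without that library the value was -1.34 (adjusted p = 0.064), and the call was also lost without CSE with naringenin libraries 1, 2, 3 or 4 (adjusted p = 0.073, 0.055, 0.069 and 0.069).

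Genes of antigen presentation and complement that passed were also lower. Ciita, the master switch of MHC class II genes, was at 13.1, 15, 12.7, 13.8 and 12.2 CPM in control, at 5.3, 4.91, 4.71, 7.15 and 4.3 CPM in CSE with naringenin and at 2.01 to 2.78 CPM in CSE alone. The 3 groups did not overlap, and both differences of CSE with naringenin passed, with log2 -1.34 ± 0.14 (SE, adjusted p = 7.29e-05) against control and 1.16 (adjusted p = 0.0016) against CSE. Of 9 genes on the MHC class II list, which includes Ciita itself, 3 fell (Ciita, RT1-Bb and RT1-DMb). RT1-Bb, a class II beta chain, fell with log2 -1.44 (adjusted p = 0.0079) and gave -0.05 against CSE (adjusted p = 0.97). RT1-DMb overlapped between groups (log2 -1.73, adjusted p = 0.031) and was not lower in library set 3 (log2 difference 0.37). Its call was lost without control libraries 1 or 2 or libraries 1, 2, 3 or 4 of CSE with naringenin (adjusted p up to 0.077). C3, the central complement protein, went from 3156, 3318, 5580, 4892 and 3393 CPM to 2176, 2629, 1696, 1754 and 1711 CPM, without overlap (log2 -1.03 ± 0.20 SE, adjusted p = 0.0057), and 3 of 20 complement and antimicrobial genes fell in all. Of 21 interferon-induced genes none passed with edgeR, while 3 had an unadjusted p under 0.05 and DESeq2 and limma-voom called 2 and 1 lower (median log2 -0.21).

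Matrix and cytoskeletal genes were among the largest falls, with Timp3, Flnc, Lox and Fbln5 making up 4 of the 8 that the naming rule gives. Tnc, tenascin C of wounded tissue, was at 80.8, 101, 89.9, 71.5 and 81.7 CPM in control and at 18.7, 26.7, 14.7, 26.8 and 7.76 CPM in CSE with naringenin (log2 -2.17 ± 0.38 SE, adjusted p = 0.0032). All treated libraries were far below the controls, and most were above the CSE libraries, at 2.3 to 11.5 CPM (log2 1.65, adjusted p = 0.056). Timp3 and Timp2, inhibitors of metalloproteinases, fell with log2 -2.45 and -0.75 (adjusted p = 0.0012 and 0.0016), Fbln5, an elastic fibre protein, with log2 -2.38 (adjusted p = 0.0017), and Flnc, an actin cross-linker, with log2 -2.42 (adjusted p = 1e-04). Lox, the enzyme that cross-links collagen, fell with log2 -2.39 (adjusted p = 0.027), and the call was lost without libraries 1, 3, 4 or 5 of CSE with naringenin (adjusted p = 0.066, 0.071, 0.063 and 0.055).

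Of 15 wound matrix and laminin-332 genes 2 fell, Tnc and the integrin Itgb4, and 5 of 18 matrix proteases and inhibitors fell (Timp3, Timp2, Adamts1, Mmp9 and Mmp12) and the list median was -0.70. The count was 2 without libraries 1, 3 or 4 of CSE with naringenin and 3 without its libraries 2 or 5 or control library 4. The secreted protease Adamts1 was at 13, 14.4, 7.28, 7.54 and 158 CPM in control and at 4.08, 3.97, 7.54, 5.95 and 3.45 CPM in CSE with naringenin, with overlap. Its log2 fold change was -3.00 (adjusted p = 0.028) with control library 5 and -1.08 (adjusted p = 0.036) without it, and without any of the libraries of CSE with naringenin the adjusted p was 0.052 to 0.070. Mmp12, an elastase of macrophages, was named after its values were seen and fell with log2 -1.88 (adjusted p = 0.034). Its call was lost without control libraries 3 or 4 (adjusted p = 0.068 for each) or libraries 1, 3 or 4 of CSE with naringenin (adjusted p = 0.075, 0.070 and 0.076). The gelatinase Mmp9 was at 2.56, 2.73, 2.24, 2.51 and 0.891 CPM in control and at 0.609, 0.507, 0.531, 0.506 and 0.442 CPM in CSE with naringenin, all below the lowest control. Its call (log2 -2.07 ± 0.55 SE, adjusted p = 0.033) held without control library 5, the lowest control, but leaving out any of the other 9 libraries gave an adjusted p of 0.052 to 0.071. Summed levels of 12 stromal markers were 465.6 to 1006 CPM in control and 175.1 to 507.8 CPM in CSE with naringenin. Of 10 stromal markers tested 1 fell, the smooth muscle calponin Cnn1 (log2 -3.45, adjusted p = 0.037), and leaving out any library other than control library 5 and CSE with naringenin library 2 gave an adjusted p of 0.054 to 0.078. The part of stromal cells in the matrix falls was not tested.

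The single largest fall by the naming rule was that of Ca3, a carbonic anhydrase that hydrates carbon dioxide slowly. It was at 18.8, 19.7, 30.8, 26.3 and 27.1 CPM in control and at 2.52, 4.28, 1.08, 0.911 and 2.36 CPM in CSE with naringenin. The groups were widely separated (log2 -3.46 ± 0.43 SE, adjusted p = 2.55e-04), and CSE alone gave 0.471 to 1.92 CPM (log2 0.76, adjusted p = 0.47). Depp1, a target of FOXO factors, fell with log2 -3.22 (adjusted p = 0.018), or -1.76 (adjusted p = 0.032) without control library 5, which held 184 CPM against 11.1 to 30.9 CPM in the other controls. Without CSE with naringenin library 1 its adjusted p was 0.0505.

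Genes of the epithelial barrier fell in part. Of 17 tight and adherens junction genes 6 fell and 11 did not pass. Cldn8, a claudin that tightens the paracellular path, was at 8.08, 8.25, 7.74, 8.56 and 7.53 CPM in control and at 3.72, 5.11, 4.94, 4.34 and 4.08 CPM in CSE with naringenin, without overlap (log2 -0.86 ± 0.12 SE, adjusted p = 4.74e-04). Cldn1 and Cldn7, which seal it, fell with log2 -1.48 and -0.36 (adjusted p = 0.015 and 0.0085), and against CSE alone the 3 claudins gave log2 0.09, -0.11 and -0.06 (adjusted p = 0.82, 0.94 and 0.81). Itgb4, the integrin of hemidesmosomes, and Dsg3, a desmosomal cadherin of stratified epithelium, fell with log2 -0.76 and -0.97 (adjusted p = 0.016 and 0.0056).

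Of 14 basal cell genes 3 fell (Krt17, Snai2 and Krt14) and the list median was -0.89, beside summed levels of 2168 to 3103 CPM in control and 1346 to 2228 CPM in CSE with naringenin. The count was 1 without control libraries 2 or 5 and without libraries 1, 4 or 5 of CSE with naringenin. Snai2, a transcriptional repressor, fell with log2 -1.30 (adjusted p = 0.033), which was lost without those libraries (adjusted p = 0.053 to 0.072). Krt17, a keratin of activated basal cells, went from 520 to 782 CPM to 194 to 500 CPM (log2 -1.13 ± 0.26 SE, adjusted p = 0.015). Krt5, the usual basal cell marker, overlapped widely, at 301, 336, 63.7, 82.1 and 311 CPM in control and 20.6, 128, 182, 186 and 60.3 CPM in CSE with naringenin (log2 -0.92 ± 0.76 SE, adjusted p = 0.50). Krt14, a partner of Krt5, fell with log2 -1.18 (adjusted p = 0.039), and leaving out any library other than control library 1 and CSE with naringenin library 2 gave an adjusted p of 0.055 to 0.088.

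Differentiated cell genes mostly did not pass, as was the case for all genes tested (4.26% higher and 3.9% lower). Of 26 cilium genes 1 fell, the tektin Tekt2 (log2 -0.49, adjusted p = 0.032), and the list median was -0.19. Without control library 5, 7 members were lower, and 8 without library set 3, while without control libraries 1, 2 or 4 or libraries 1, 2, 3 or 5 of CSE with naringenin none passed with edgeR and Tekt2 had an adjusted p of 0.057 to 0.070. Deup1, which builds the deuterosome for centriole amplification, fell with log2 -0.46 (adjusted p = 0.0087). Of 13 mucin and goblet cell genes none passed with edgeR, with 2 at an unadjusted p under 0.05, 1 higher with DESeq2 and 0 with limma-voom (median log2 -0.11).

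Of 12 club cell genes Pigr, which carries IgA across the epithelium, was the member that fell, from 10389, 10160, 10832, 12007 and 9735 CPM to 8937, 7341, 8111, 8864 and 7594 CPM. The fall was small but without overlap (log2 -0.38 ± 0.082 SE, adjusted p = 0.011). With limma on the log2 FPKM values Pigr did not pass (log2 -0.32, adjusted p = 0.075), and the list then had 0 members lower. Scgb1a1, the main club cell secretory protein, was at 433, 560, 571, 522 and 1092 CPM in control and at 478, 606, 406, 300 and 467 CPM in CSE with naringenin. It overlapped between groups and did not pass (log2 -0.49 ± 0.24 SE, adjusted p = 0.22), and without control library 5 the value was -0.21.

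Of 19 ion and fluid transport genes 2 fell and 1 rose (4 fell without control library 5). Scnn1a, the alpha subunit of the epithelial sodium channel, fell from 279 to 325 CPM to 216 to 254 CPM (log2 -0.39 ± 0.072 SE, adjusted p = 0.0045), and Slc26a4, the anion exchanger pendrin, from 16.4 to 34.6 CPM to 4.93 to 12.6 CPM (log2 -1.73 ± 0.28 SE, adjusted p = 0.0019). Both were clear of the controls in all 5 libraries. The chloride channel Cftr overlapped widely, at 23.2 to 83.9 CPM in control and 12.4 to 69.5 CPM in CSE with naringenin (log2 -0.50 ± 0.53 SE, adjusted p = 0.62). With the library sets as a block Cftr passed as lower (log2 -0.59, adjusted p = 0.023), and its difference was negative within each of the 3 sets (log2 -0.80, -0.39 and -0.67). The sets were drawn from these same counts, so that adjusted p can overstate the evidence and the signs are no separate check.

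Signalling genes outside inflammation also differed. Of 23 semaphorins and plexins, guidance ligands and receptors that also act between epithelial and immune cells, 6 fell (3 when any of libraries 1 to 4 of control or libraries 1, 3, 4 and 5 of CSE with naringenin was left out). Sema4a was at 22.7, 24.1, 23.1, 21.3 and 32.5 CPM in control and at 5.33, 9.23, 7.61, 6.53 and 9.58 CPM in CSE with naringenin. Every library of CSE with naringenin was below the controls (log2 -1.69 ± 0.16 SE, adjusted p = 2.19e-05) and also below CSE alone, at 10.6 to 12.8 CPM, although the latter difference did not pass (log2 -0.57, adjusted p = 0.089). Sema3d, a secreted member, fell with log2 -2.32 (adjusted p = 0.0025).

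Sema7a, a membrane-anchored member that engages integrins, was at 40.4, 41.4, 41.9, 41.3 and 42.3 CPM in control, at 29.3, 30.8, 27.2, 23.5 and 29.5 CPM in CSE with naringenin and at 7.8 to 16.5 CPM in CSE alone. The 3 groups were apart, with log2 -0.56 ± 0.16 (SE, adjusted p = 0.048) against control and 1.34 (adjusted p = 0.0018) against CSE. The call against control was lost when any 1 of the 10 libraries was left out (adjusted p = 0.056 to 0.11).

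**Figure D3:**
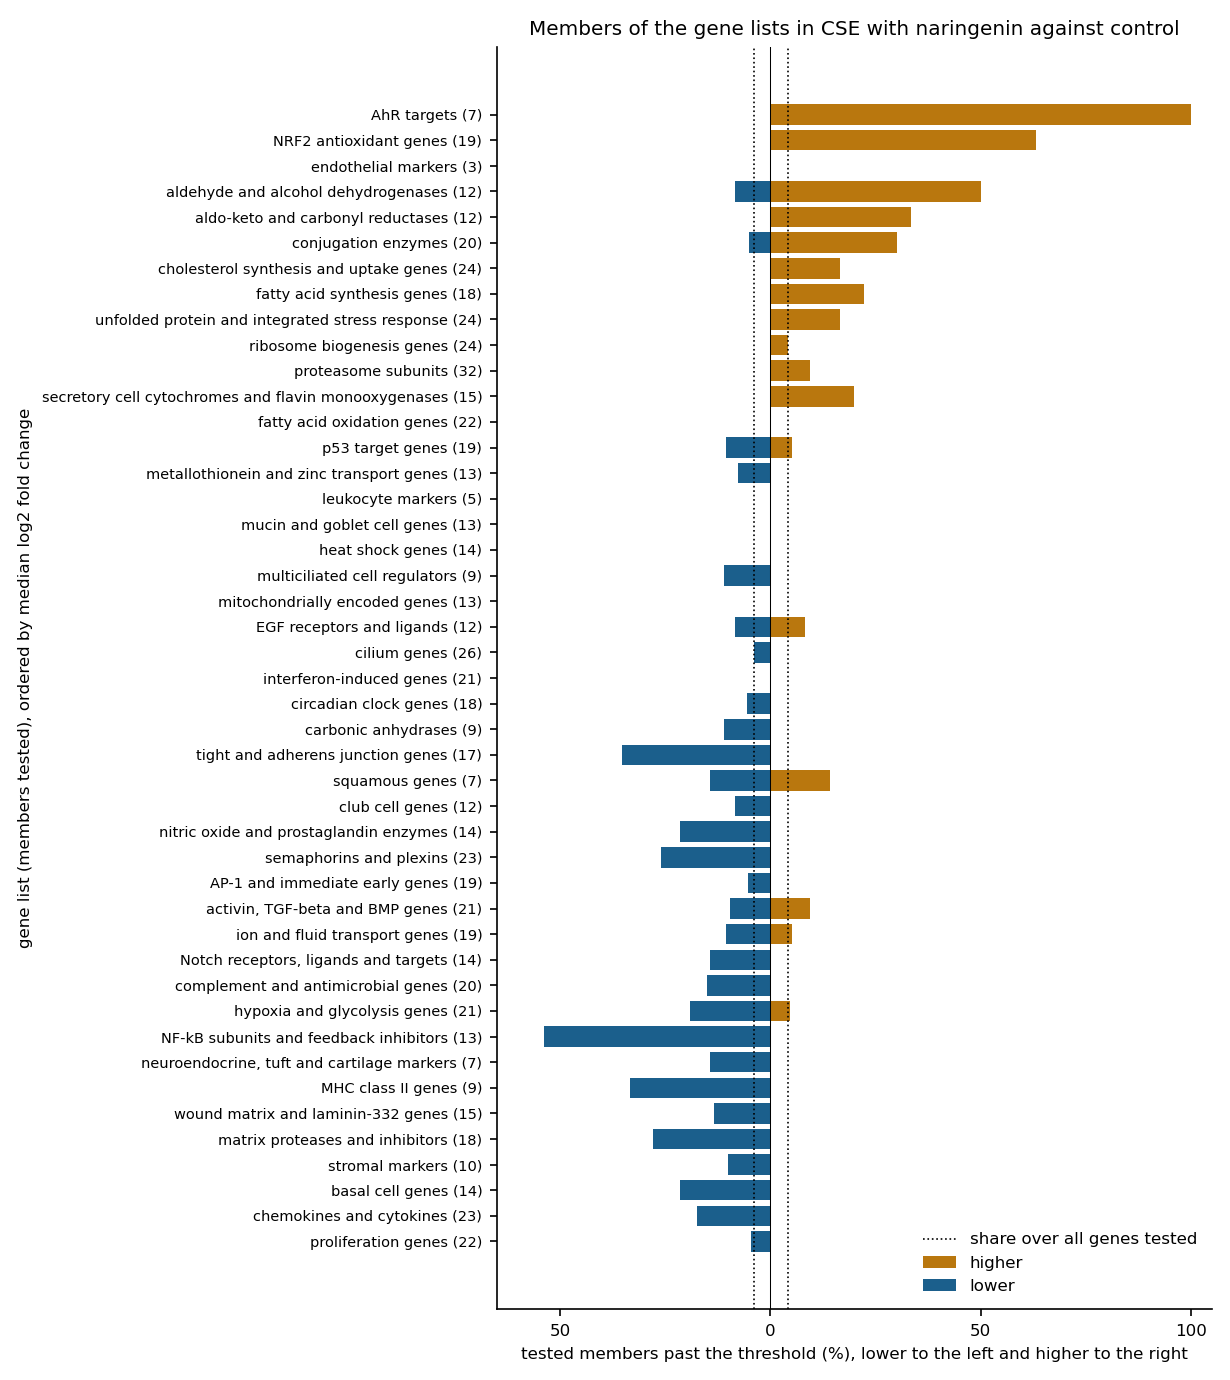
For each of 45 gene lists, bars give the percentage of tested members (number in brackets) that were higher (right) or lower (left) in CSE with naringenin than in control, ordered by the list's median log2 fold change, and dotted lines mark 4.26% and 3.9%, the shares over all genes tested. AhR targets reach 100% and NRF2 genes the next highest share to the right, and NF-kB genes the highest share to the left.

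Genes of lipid synthesis that passed were higher than in control, and against CSE the differences went both ways. Of 18 fatty acid synthesis genes 4 rose and of 24 cholesterol synthesis and uptake genes 4 rose (2 without control library 4), with medians of 0.18 and 0.19. Against CSE, 1 fatty acid synthesis gene was higher and 2 were lower, among the latter Me1, which is also on the NRF2 list. In the cholesterol list 2 were higher than in CSE and 0 lower. Scd2, a desaturase that makes monounsaturated fatty acids, was at 645, 667, 736, 650 and 867 CPM in control, at 1288, 1580, 1218, 1095 and 1049 CPM in CSE with naringenin and at 590 to 764 CPM in CSE alone. CSE with naringenin exceeded both other groups in every library, with log2 0.81 ± 0.12 (SE, adjusted p = 8.88e-04) against control and 0.94 (adjusted p = 0.0018) against CSE, while CSE minus control was -0.14 (adjusted p = 0.45). Elovl6, an elongase of fatty acids, rose with log2 0.73 (adjusted p = 0.0021), and its difference from CSE was 0.24 (adjusted p = 0.43). Dhcr7, a late enzyme of cholesterol synthesis, rose with log2 0.47 against control and 0.55 against CSE (adjusted p = 0.019 and 0.037). Of 22 fatty acid oxidation genes none passed against control with edgeR (3 at an unadjusted p under 0.05; 1 lower with DESeq2 and 0 with limma-voom), and the median was 0.04.

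By the naming rule, further genes passed against both control and CSE. Farther from control than CSE alone were Pycr1, which makes proline (log2 0.89 against control and 0.81 against CSE), Klf11, a transcriptional repressor (-0.56 and -0.55), and Eps8l3, a relative of an actin regulator (-0.58 and -0.40). For Pycr1 all 5 libraries, at 9.26 to 10.8 CPM, lay above both other groups, and CSE minus control was 0.08 (adjusted p = 0.79). Its call against control was lost when counts were summed per library set with the set as a block (log2 0.81, adjusted p = 0.080). Gadd45g, a stress-induced growth regulator, gave -0.50 and -0.65 (adjusted p = 0.022 for both), the former lost without control library 3 (adjusted p = 0.051) or CSE with naringenin library 3 (adjusted p = 0.059).

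Nearer to control than CSE alone, but past the threshold against it, were the peptide importer Slc15a1, the iron exporter Slc40a1 and the transcriptional inhibitor Id2. Id2, a target of BMP signalling, was at 8.93, 10.6, 12.2, 10.1 and 12.6 CPM in control, at 34.3, 38.7, 29.4, 24.4 and 37.4 CPM in CSE with naringenin and at 43.7 to 67.3 CPM in CSE alone. The groups were all apart (log2 1.59 ± 0.15 SE, adjusted p = 2.19e-05 against control; -0.68, adjusted p = 0.040 against CSE). Slc15a1 gave log2 1.45 and -1.31 (adjusted p = 7.24e-04 and 0.0070) and Slc40a1 1.10 and -0.93 (adjusted p = 0.0030 and 0.034).

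**Figure D4:**
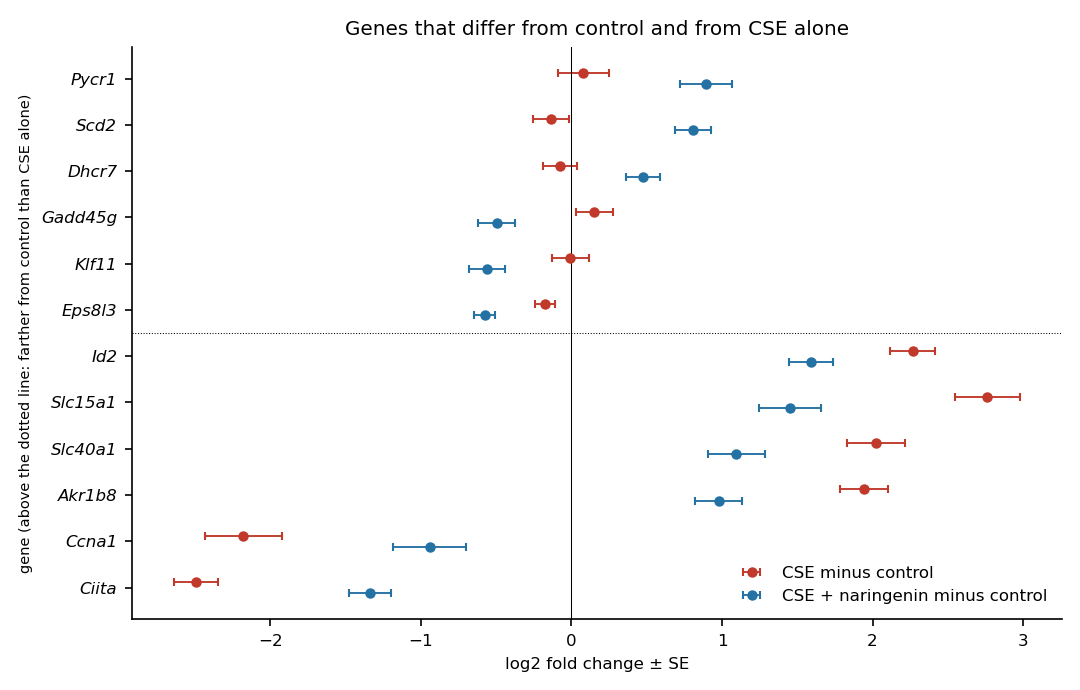
For 12 genes past the threshold against control and against CSE, points give the log2 fold change ± SE of CSE minus control and of CSE with naringenin minus control, which share the control libraries. Above the dotted line CSE with naringenin lies farther from control than CSE does (Scd2 at 0.81 against -0.14), and below it nearer (Ciita at -1.34 against -2.49).

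Protein and energy homeostasis changed in few members. Of 32 proteasome subunits 3 rose (5 without control library 5), among them Psmd3 of the regulatory lid with log2 0.30 (adjusted p = 0.0041), at 145 to 169 CPM against 120 to 129 CPM in control, and the list median was 0.12. Of 24 unfolded protein and integrated stress response genes 4 rose (Sdf2l1, Shmt2, Chac1 and Psat1), a count that was 1 without control library 4 or CSE with naringenin libraries 3 or 4, 2 without control libraries 1 or 3 or CSE with naringenin library 5, and 7 without its library 2. Of 14 heat shock genes none passed with edgeR, none had an unadjusted p under 0.05 and DESeq2 and limma-voom called 0 (median log2 -0.14). Of 21 hypoxia and glycolysis genes 4 fell and 1 rose. Pfkl, the liver-type phosphofructokinase, fell from 414, 429, 418, 475 and 484 CPM to 252, 263, 252, 280 and 327 CPM (log2 -0.69 ± 0.089 SE, adjusted p = 3.33e-04), and the hexokinase Hk1 rose with log2 0.48 (adjusted p = 0.0060). The hypoxia and glycolysis count moved both ways with the setting. It was 11 lower without library set 3, 12 with the replicate block, 17 with the library sets as a block and 16 with counts summed per set, and 1 lower without control library 5 or CSE with naringenin libraries 1, 2, 3 or 4, 2 lower without control library 4, and 3 higher without control library 5.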

How the data were processed

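Poly(A)-selected RNA was sequenced as 150-base pairs on an Illumina NovaSeq from libraries with strand marking and molecular identifiers, per the labels' protocols. Tools listed in the submitters' processing notes, without their roles, are HISAT2 2.0.4, StringTie 1.3.4d, cutadapt 1.9, UMI-tools, edgeR and DESeq2. The genome build, and whether counting used strand or merged identifiers, are not given in the sources used here. The authors deposited whole-number counts per gene, not normalized, and FPKM values beside them. The table holds 21969 genes, of which 15860 passed filterByExpr and were tested.

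All comparisons come from 1 fit of the 15 libraries with group as the only term (edgeR 4.0.16 in R 4.3.3, TMM, quasi-likelihood F test, Benjamini-Hochberg over all genes tested). Adjusted p-values are edgeR's, n is 5 libraries a group, ± is the SE of the log2 fold change, and the code was tested on simulated data. Alternatives were DESeq2 1.42.0, limma 3.58.1 (voom, and log2 of the deposited FPKM + 0.1), other scaling, no filter, the 10 libraries alone, a replicate block, library sets as a block or summed, and leaving out each library. The labels state no pairing of libraries by replicate number. Same-numbered libraries of the 2 groups had deviations correlated over 0.1 in 1 of 5 pairs.

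The comparison and 45 gene lists (798 symbols, 751 matched, 711 tested) were chosen with earlier results of these data known. Genes were named by rule: the 8 largest rises and falls that passed, did not overlap and reached a mean of 5 CPM, up to 4 members of each list by p, 24 set genes, and 6 genes each nearer to and farther from control than CSE that passed both comparisons. Tiparp, Ugt1a6 and Mmp12 lie outside these rules and were named after their values were seen. Replicates were compared by a chi-square per gene, and no pair agreed within sampling noise. Floors cover counting error only. Promoters are RefSeq entries of GRCr8, present for 5 of 7 AhR and 13 of 19 NRF2 members tested.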

Additional observations from a re-analysis of the deposited data

Results flagged for a closer look

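In 26 of 184 groups of 5 libraries, over the genes named, library totals and mitochondrial shares, the highest or lowest library stood apart from the other 4 by Dixon's criterion, which chance alone meets in about 5% of groups. Control library 5 accounted for 16. It was the highest control for Aldh3a1 (335 CPM, others 123 to 177), Hmox1 (283, others 139 to 154), Akr1b8 (491, others 269 to 314), Aldh1a3 (37.5, others 22.3 to 25.9), Depp1 (184, others 11.1 to 30.9), Ccl20 (58.9, others 18.9 to 23.9) and Nos2 (162, others 17.1 to 20.5). It was also the highest for Scgb1a1 (1092, others 433 to 571), Sema4a (32.5, others 21.3 to 24.1), Sox9 (15.2, others 4.93 to 6.34), Ndrg1 (1413, others 128 to 289), Per2 (62.1, others 47 to 49.7), Adamts1 (158, others 7.28 to 14.4), Csf2 (11.5, others 1.75 to 2.84) and Id3 (12, others 1.2 to 3.64), and the lowest for Mmp9 (0.891, others 2.24 to 2.73). Control library 2 was the lowest for Bambi (0.144, others 0.687 to 0.803).

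Library 2 of CSE with naringenin accounted for 7. It was the highest of its group for Aldh3a1 (1965 CPM, others 1054 to 1262), Timp2 (80.5, others 54.1 to 60.9), Ccl20 (15.8, others 7.8 to 9.98), Relb (17.7, others 15.8 to 16.2), Nfkb1 (93.3, others 64.5 to 72.2) and Elovl6 (8.52, others 5.98 to 6.39), and the lowest for Deup1 (44.8, others 53.5 to 56.9). Library 5 of that group was the lowest for Me1 (174, others 196 to 203) and the highest for Nos2 (16.2, others 4.36 to 6.12).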

How the results depend on the processing

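Against 675 higher and 619 lower genes, fitting the 10 libraries alone gave 410 and 423, DESeq2 gave 966 and 1098 (244 lower at least 2-fold, against 139), limma on log2 FPKM gave 1195 and 494, and library sets as a block gave 1995 and 2197 (145 higher and 340 lower at least 2-fold, against 91 and 139). Counts summed per set with the set as a block gave 631 and 1009 (251 lower at least 2-fold), so that 38.5% of calls were higher. Leaving out 1 library gave 396 to 675 higher and 359 to 734 lower, and at least 2-fold 61 to 101 higher and 80 to 198 lower. The causes of these shifts were not tested. Without set 3, an alternative chosen after seeing the data, 618 were higher and 777 lower. The replicate block gave 721 and 729, sharing 1103 of the 1294 calls, and limma-voom, the other size factors and no filter stayed within 1.5 times of both counts. None of the named genes changed sign in any of these settings. Of 125 genes followed, 22 lost their call without set 3, among them Cldn1, Krt17, Depp1 and Dhcr7. With limma-voom 13 calls were lost and with the replicate block 15, Depp1 among them in both. Hmox1 and Cftr passed with the library sets as a block (log2 0.70 and -0.59, adjusted p = 0.0023 and 0.023). The sets were drawn from these same counts, so calls made with that block can be overstated. That block raised the lower count of 35 of 45 gene lists and the higher count of 17, each from 0 or by more than 1.5 times. Counts summed per set lost the calls of 16 genes, among them Pycr1, Txnrd1, Sema7a and Adamts1 (adjusted p = 0.080, 0.074, 0.052 and 0.12). With limma on log2 FPKM 10 calls were lost, among them that of Pigr (adjusted p = 0.075). The 3-count floor leaves genes under about 0.05 CPM in a library undetectable at this depth.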

Other observations

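Further gene groups are given as values, beside 4.26% higher and 3.9% lower over all genes tested. Of 21 activin, TGF-beta and BMP genes 2 rose (Id2 and Bambi) and 2 fell (Bmp6 and Id3; 1 fell without control libraries 4 or 5 or CSE with naringenin libraries 1, 3, 4 or 5). Bambi, a decoy receptor, rose with log2 1.66 (adjusted p = 0.0083). Id3, at 12 CPM in control library 5 and 1.2 to 3.64 CPM in the other controls, had a log2 of -1.87 (adjusted p = 0.043) and of -1.04 (adjusted p = 0.11) without that library, and its call was also lost without control libraries 3 or 4 (adjusted p = 0.057 and 0.051) or libraries 1, 3, 4 or 5 of CSE with naringenin (adjusted p = 0.061 to 0.099). The ligand Bmp6 went from 5.84, 5.27, 8.13, 6.01 and 13.3 CPM in control to 2.7, 3.27, 1.96, 3.12 and 1.8 CPM in CSE with naringenin (log2 -1.58 ± 0.28 SE, adjusted p = 0.0030). Sox9, a progenitor and cartilage factor, fell with log2 -2.10 (adjusted p = 0.0010; -1.66 without control library 5). Slc39a8, an importer of zinc and manganese, was at 22.1 to 41.3 CPM in control and at 9.12 to 19 CPM in CSE with naringenin, without overlap (log2 -1.38 ± 0.21 SE, adjusted p = 0.0013).

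The clock gene Per2 was the member that fell of 18 circadian genes (2 without control library 1). That count is near the 3.9% lower over all genes tested and is no result about the list. Per2 was at 47 to 62.1 CPM in control and 28.6 to 40.7 CPM in CSE with naringenin (log2 -0.56 ± 0.11 SE, adjusted p = 0.0067). Ndrg1, induced by hypoxia, fell with log2 -1.99 (adjusted p = 0.045), but control library 5 held 1413 CPM against 128 to 289 CPM in controls 1 to 4, and the fit without that library gave -0.90 (adjusted p = 0.11). The Ndrg1 call was also lost without control library 2 (adjusted p = 0.052) and without each of the 5 libraries of CSE with naringenin (adjusted p = 0.059 to 0.10).

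Of 5 leukocyte markers tested none passed with edgeR (1 at an unadjusted p under 0.05; DESeq2 and limma-voom called 1 and 0), and of 13 mitochondrially encoded genes none passed (0 at an unadjusted p under 0.05 and 0 by DESeq2 and limma-voom; 3 lower with edgeR without control library 5).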
